A study of Mus musculus with 2 samples.

Results

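Pax genes encode transcription factors that bind DNA through a paired domain, and most of them act as early regulators of 1 or a few organs. The genes described here are the 7 family members whose best known work lies outside the tooth: Pax1, Pax2, Pax4, Pax5, Pax6, Pax7 and Pax8. They were taken by symbol from the 21631 protein-coding genes located on autosomes or X, and each was examined at its annotated mouse position (build mm10) with 30 kb added on either side. The remaining members of the family, Pax3 and Pax9, work in the neural crest and in tooth mesenchyme and serve below as the comparison.

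The chromatin came from the incisor pulp of CD1 mice aged 5 days. These pups had received 1 injection of EdU, a thymidine analogue that marks replicating DNA, at 3.3 µg per g 24 h before collection, and only EdU-positive cells sorted by flow cytometry were used. The labels name no other treatment. There was 1 library for H3K4me3, the trimethylation of histone H3 at lysine 4 that accompanies promoters in use or held ready, and 1 for H3K27me3, the trimethylation at lysine 27 laid down by Polycomb repressive complex 2. The labels do not say how many animals were pooled or whether both libraries came from 1 sort, and sorting on EdU selects cells by recent replication, not by cell type. Values are called islands of enrichment with a summit height, the authors' score. Read counts were not used here, so the depth is unknown. With no second library of either mark there is no replicate spread, and every comparison below is a description without a test.

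Polycomb repression is known for holding the regulators of unused fates silent in cells that have chosen another one. Pax genes are among them, and start sites of such regulators often lie in CG-rich sequence, which Polycomb complexes can occupy when it is not transcribed. A gene that carries H3K4me3 and H3K27me3 together is often called bivalent, although in a mixed population the marks can also lie in different cells.

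The labelled tissue was checked first against marker genes. H3K4me3 lay within 1 kb of an annotated end of all 8 markers of incisor mesenchyme, with summit heights from 73 at Col1a1 to 205 at Msx2. Dlx5 and Dlx6, counted as 2 of the 8, share 1 H3K4me3 island of 28.6 kb. H3K27me3 lay there too at 7 of the 8 markers, with islands of 26.4 kb at Msx1 and 35.8 kb at Pax9. The widest H3K27me3 islands on these 7 genes had heights from 12 at Msx2 and Dlx5 to 31 at Pax9. H3K27me3 was thus also present at genes of this tissue. Of the markers of other cells, H3K4me3 was found at a gene end of 3 of 5 for epithelium, 2 of 4 for blood and 2 of 4 for neurons and glia. It was found at 1 of 3 for endothelium and 0 of 3 for skeletal muscle. As 58.9% of all protein-coding genes had it, these short lists say little about which other cells were present. Those with H3K4me3 were Krt14 (height 8), Epcam (58) and Cdh1 (46) for epithelium, and Spi1 (30) and Cd79a (123) for blood. Tubb3 (27) and Elavl3 (14) had it for neurons and glia, and Kdr (65) for endothelium. The leukocyte marker Ptprc, the endothelial marker Pecam1 and the epithelial regulator Trp63 had no island of either mark within 30 kb. The blood marker Cd79a shares its H3K4me3 island with the start of Arhgef1. The part that other cell types play in the results below was not tested.

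The sequence before the start sites is shown for 6 start sites that differ in their marks. RefSeq start sites on GRCm38.p6 (the assembly named mm10) were listed for 6 of the 7 genes, 9 sites in all. No entry was listed for Pax4 or Pax3. Each line gives the 250 bases before a start, read 5′ to 3′ on the strand of the gene, with every CG dinucleotide in capitals. The first start of Pax2 (chr19:44746351-44746600, plus strand) lay under H3K27me3 alone, and its second start (chr19:44755502-44755751, plus strand) under both marks. The start of Pax5 (chr4:44710695-44710944, minus strand), the first start of Pax6 (chr2:105668646-105668895, plus strand) and the start of Pax8 (chr2:24475600-24475849, minus strand) lay under H3K27me3 alone. The start of Pax9 (chr12:56695221-56695470, plus strand), active in tooth mesenchyme, is shown for contrast and lay under both marks.
Pax2, first start: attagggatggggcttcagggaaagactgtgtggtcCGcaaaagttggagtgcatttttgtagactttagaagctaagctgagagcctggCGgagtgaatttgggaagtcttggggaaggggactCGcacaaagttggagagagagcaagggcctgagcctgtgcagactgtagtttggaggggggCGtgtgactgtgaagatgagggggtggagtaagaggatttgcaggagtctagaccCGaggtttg
Pax2, second start: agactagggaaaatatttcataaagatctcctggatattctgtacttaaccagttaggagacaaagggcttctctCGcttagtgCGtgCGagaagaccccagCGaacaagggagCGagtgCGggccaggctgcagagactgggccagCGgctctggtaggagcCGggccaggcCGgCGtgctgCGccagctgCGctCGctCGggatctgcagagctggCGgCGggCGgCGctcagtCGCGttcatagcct
Pax5: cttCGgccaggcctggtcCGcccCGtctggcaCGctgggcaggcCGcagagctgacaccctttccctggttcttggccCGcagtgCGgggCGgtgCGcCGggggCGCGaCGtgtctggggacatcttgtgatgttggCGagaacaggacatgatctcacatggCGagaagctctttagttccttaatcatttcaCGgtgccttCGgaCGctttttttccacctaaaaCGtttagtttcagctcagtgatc
Pax6, first start: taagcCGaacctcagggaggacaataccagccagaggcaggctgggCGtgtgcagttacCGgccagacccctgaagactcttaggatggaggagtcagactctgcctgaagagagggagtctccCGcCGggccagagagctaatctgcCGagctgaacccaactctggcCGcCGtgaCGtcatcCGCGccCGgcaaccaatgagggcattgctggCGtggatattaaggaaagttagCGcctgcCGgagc
Pax8: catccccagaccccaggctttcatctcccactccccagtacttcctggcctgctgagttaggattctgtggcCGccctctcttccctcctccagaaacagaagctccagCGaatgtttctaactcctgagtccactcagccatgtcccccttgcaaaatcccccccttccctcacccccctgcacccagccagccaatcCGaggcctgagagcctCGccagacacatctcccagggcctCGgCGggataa
Pax9: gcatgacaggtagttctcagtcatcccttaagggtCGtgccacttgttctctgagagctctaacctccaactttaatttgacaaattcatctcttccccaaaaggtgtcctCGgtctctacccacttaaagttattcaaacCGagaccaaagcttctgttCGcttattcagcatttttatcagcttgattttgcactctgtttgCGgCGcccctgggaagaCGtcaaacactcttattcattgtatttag

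All 9 start sites of the 6 genes lay inside an H3K27me3 island, against 15.1% of the 32851 start sites in the RefSeq table. The 3 starts of Pax2 share 1 such island, as do the 2 of Pax6, so the 9 sites are not independent. Inside an H3K4me3 island were 2 of the 9, both in 1 island at Pax2, where the share over the whole table was 42.8%. The same 2 lay inside both marks, a state of 8.98% of all start sites. CG dinucleotides numbered 10 before the start of Pax1, 5, 20 and 25 before the 3 starts of Pax2, 19 at Pax5, 15 at each of the 2 starts of Pax6, 13 at Pax7 and 6 at Pax8. The median over the 9 was 15, against 6 over all start sites. Start sites under H3K27me3 without H3K4me3 had a median of 5 over the genome (interquartile range 3 to 9), and the Pax starts in that state exceeded this range at Pax1, Pax5, Pax6 and Pax7 but not at Pax8 or the first start of Pax2. The motif TATAAA, searched on both strands, was found before none of the 9 starts and before 12.4% of all. Start sites under both marks and those under H3K4me3 alone had medians of 16 and 17 CG dinucleotides. Of the 7 Pax starts under H3K27me3 alone, those of Pax5, Pax6 and Pax7 had counts within the interquartile range of starts under H3K4me3 alone, 11 to 24.

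**Figure D1:**
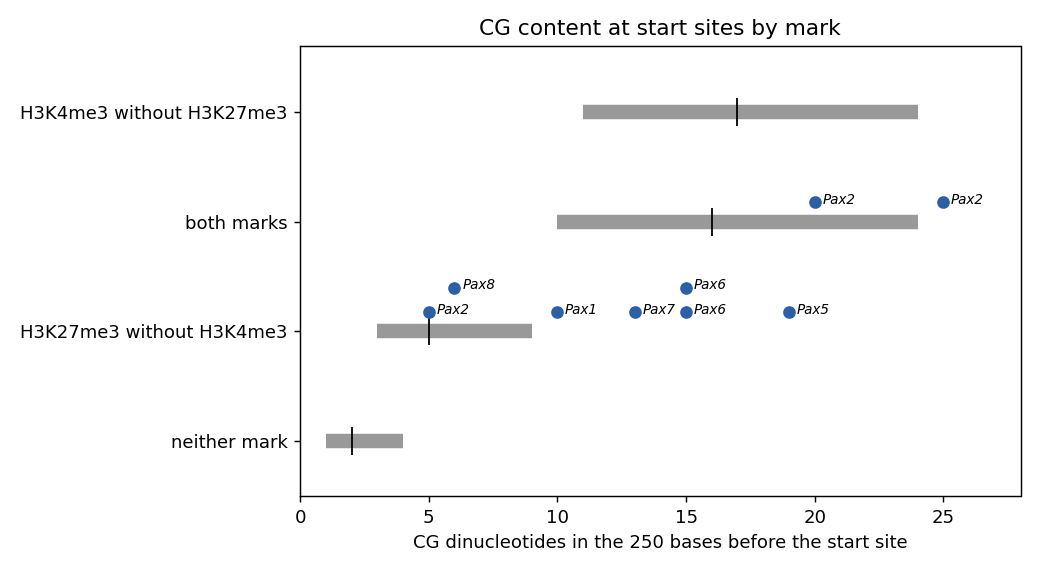
CG dinucleotides in the 250 bases before annotated start sites (x axis) by the marks on the start site (y axis). Grey bars give the interquartile range and black ticks the median over all start sites of that state, and blue points are the 9 start sites of Pax genes, with 2 of the 3 Pax2 starts in the row for both marks.

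H3K27me3 was found on all 7 genes. An island overlapped the gene itself at 7 of 7, against 23.6% of all protein-coding genes, and lay within 30 kb at 7 of 7, against 43.8%. In the order of the widest island on each gene, Pax7 had 71.6 kb, Pax2 70.2 kb, Pax6 49.0 kb, Pax5 42.8 kb, Pax1 32.6 kb, Pax8 18.6 kb and Pax4 14.4 kb. The median H3K27me3 island of the genome was 6.2 kb wide. Over the 5099 genes with H3K27me3 on the gene, the widest island had a median width of 8.4 kb and a median height of 21. An island over 20 kb lay on 5 of the 7 genes, against 3.13% of all genes. Summit heights of these same islands fell in another order, with 90 at Pax5, 89 at Pax6, 82 at Pax2, 81 at Pax7, 73 at Pax1, 61 at Pax8 and 15 at Pax4. The widest island had a summit of 60 or more at 6 of the 7 genes, against 3.38% of all genes. Without replicates the order of neighbours such as Pax5 and Pax6, or Pax2 and Pax7, cannot be separated from measurement error. Pax4 stood apart from the others in height, at the 63.0 percentile of all H3K27me3 islands, where the other 6 lay between 95.4 and 99.3. Its height was below the median of 21 for the widest islands on genes.

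**Figure D2:**
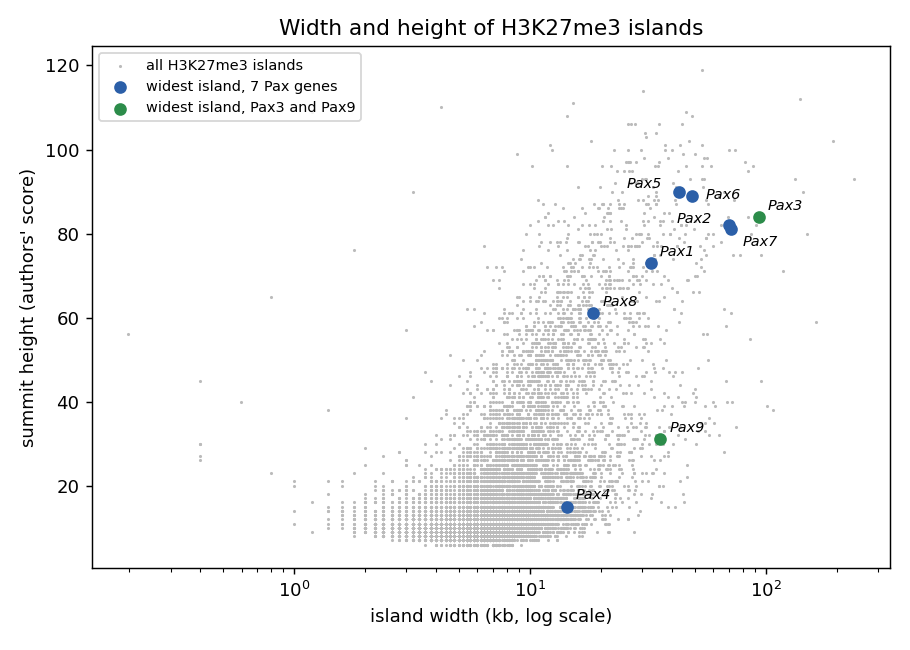
Width (x axis, log scale) and summit height (y axis, the authors' score) of every H3K27me3 island in grey, with the widest island of each of the 7 Pax genes in blue and of Pax3 and Pax9 in green. Of the 7, 6 sit at heights of 61 to 90, while Pax4 at 15 and Pax9 at 31 lie lower.

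Pax1 patterns the vertebral bodies and intervertebral discs, and later acts in the thymus. The gene lies on chromosome 2 (147361930 to 147375049) and was covered over 100% of its length by a single H3K27me3 island that began 14.8 kb before its start site and ended 17.8 kb after it. Smaller islands of 5.00 kb (height 12) and 7.20 kb (height 18) followed at 14.1 and 20.1 kb from the gene on the upstream side. H3K27me3 took up 61.3% of the gene with its flanks, and no H3K4me3 island was called in these 73.1 kb. The long noncoding RNA gene AI646519, which starts on the opposite strand, lay under the same island.

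Pax2, Pax5 and Pax8 form a subgroup with closely similar proteins. Pax2 acts in kidney, optic stalk, inner ear and the midbrain-hindbrain border, Pax5 commits lymphoid precursors to the B cell fate, and Pax8 is needed for thyroid follicular cells and, with Pax2, for the kidney. Despite this kinship the genes differed in the share under H3K27me3. It covered 96.7% of Pax2, 65.5% of Pax5 and 17.1% of Pax8, and with the flanks 90.2%, 59.9% and 16.2%. In length the order of the first 2 was reversed, as Pax5 is the longer gene. H3K27me3 took up 147 kb of the Pax5 window, 137 kb at Pax2 and 18.6 kb at Pax8.

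At Pax2 (chromosome 19, 44746601 to 44838269) there were 3 H3K27me3 islands on the gene, of 70.2 kb (height 82), 12.2 kb (height 13) and 53.2 kb (height 72). The first spanned all 3 start sites and reached 36.4 kb upstream of the first of them. The last of them, of 53.2 kb, covered the far end of the gene, with its summit 78.4 kb beyond the nearest start. Pax2 was thus the gene of the 7 with the largest share of its surroundings marked, at the 99.7 percentile of all genes.

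H3K4me3 was called at 4 places around Pax2, each lying wholly inside H3K27me3. The island over the second and the third start site was 2.0 kb wide with a height of 19. Another of 1.6 kb (height 22) lay 19.0 kb before the gene, away from any annotated gene. The remaining pair, both 2.20 kb wide, overlapped long noncoding RNA genes: Gm35610 in front of Pax2 (height 10) and 1700039E22Rik, whose start it covered, at the far end (height 15). This last island is the one that gave Pax2 H3K4me3 within 1 kb of an annotated gene end, so the mark at its gene end and the mark at its start sites are separate islands.

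Pax5 (chromosome 4, 44524748 to 44710694) is the longest of the 7 genes at 186 kb, and its H3K27me3 was broken into 9 islands on the gene and 2 in the flanks. The highest of them stood at the start. The island over the start site was 42.8 kb wide with a height of 90, and the next ones toward the far end had heights of 11, 35, 28, 15, 12, 14, 13 and 10. Split at its midpoint, the gene was covered to 80.4% on the side of the start and to 50.7% on the far side. Short H3K4me3 islands, 3 in number, lay inside the gene, again each wholly under H3K27me3: 2.0 kb at 20 in height within the noncoding gene 5730488B01Rik, 2.40 kb at 39 and 0.999 kb at 21. Their summits lay 6.63, 46.5 and 153 kb downstream of the annotated start, and the start itself had no H3K4me3 island.

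Pax8 (chromosome 2, 24420551 to 24475599) carried 1 compact H3K27me3 island. It was 18.6 kb wide, nearly centred on the start site (9.20 kb upstream and 9.40 kb downstream), and had a height of 61. Split at its midpoint, the gene was covered to 34.1% on the side of the start and to 0% on the far side. No H3K4me3 island was called in the 115 kb examined. The neighbouring Psd4, an exchange factor gene for Arf proteins, had H3K4me3 at its start outside that window and no H3K27me3 on the gene.

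Pax7 marks the satellite cells of skeletal muscle and the dorsal neural tube, and is the closest relative of Pax3. On chromosome 4 (139737059 to 139833530) its widest H3K27me3 island ran from 31.8 kb upstream to 39.8 kb downstream of the start site. Further islands of 4.80 kb (height 12) and 26.4 kb (height 15) lay inside the gene, and one of 5.40 kb (height 13) lay 9.26 kb past its far end. H3K27me3 covered 74.1% of the gene, with 93.6% on the start side of its midpoint and 54.7% on the far side. No H3K4me3 island was called within 30 kb of Pax7. The noncoding gene Gm46873, which runs the other way from next to the Pax7 start, lay wholly under the same H3K27me3 island.

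Pax6 and Pax4 form another subgroup. Pax6 is a regulator of eye, forebrain and pancreas, and Pax4 of the insulin-producing cells of the pancreas. At Pax6 (chromosome 2, 105668896 to 105698410) a single H3K27me3 island of 49.0 kb held both start sites and covered 91.2% of the gene. Its summit lay just upstream of the first start, at -0.575 kb. The island also covered the noncoding gene Paupar and the start of Pax6os1, and it ended before the 3′ neighbour Elp4, an Elongator subunit gene, which overlaps the end of Pax6. Elp4 had H3K4me3 at its own start and 0% of its length under H3K27me3. The H3K4me3 island at Pax6, 2.20 kb wide with a height of 10, lay between the start sites and covered neither.

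Pax4 (chromosome 6, 28442334 to 28449340) differed from the rest. Its H3K27me3 island of 14.4 kb overlapped 30.5% of the gene at the high-coordinate end, extended away from it and had a height of 15. The H3K4me3 island in the window, 10 kb wide with a height of 129, was 15.1 kb from Pax4 and held the starts of the neighbours Gcc1, a Golgi protein gene, and Arf5, a vesicle transport gene, with no H3K27me3 on either. Pax4 itself had no H3K4me3 island.

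**Figure D3:**
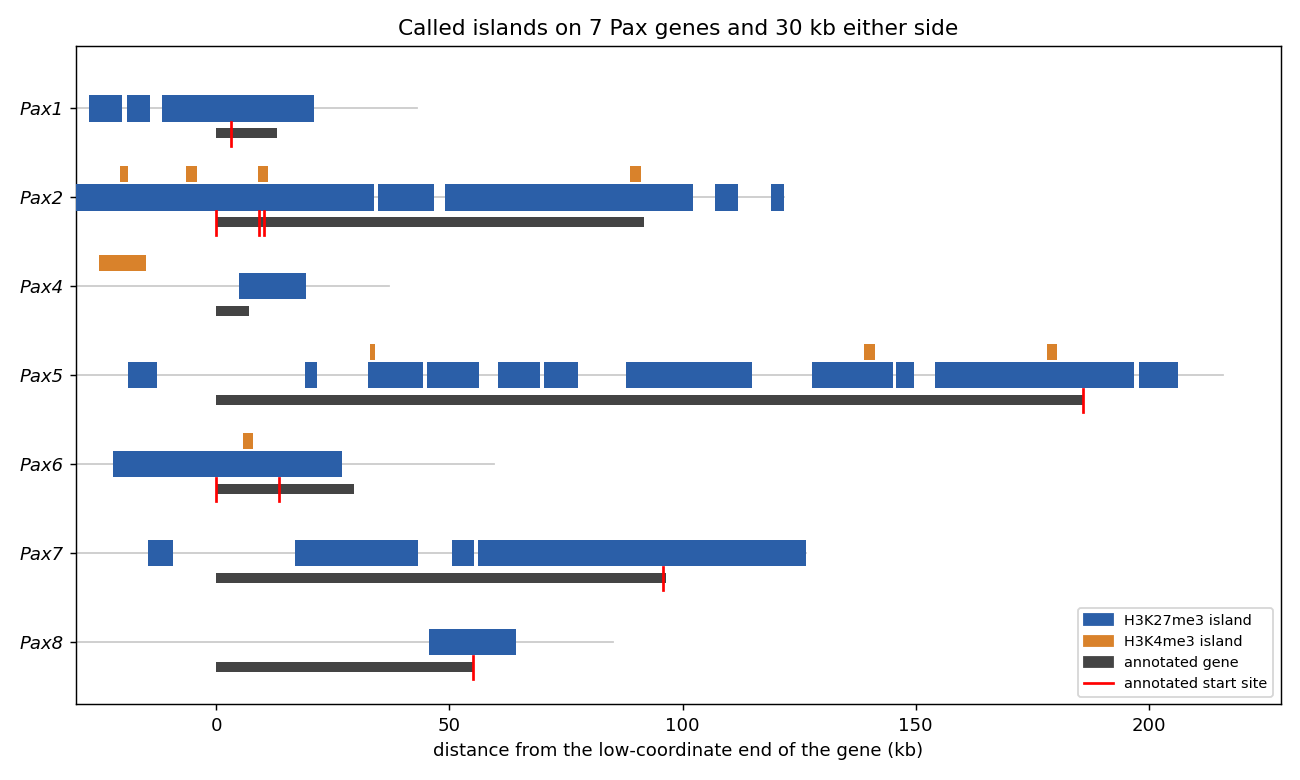
Islands of H3K27me3 (blue) and H3K4me3 (orange) on each Pax gene and 30 kb either side, with distance in kb from the low-coordinate end of the gene (x axis), the gene as a dark bar and annotated start sites as red lines. Blue blocks cover every red line, and the 8 orange blocks at Pax2, Pax5 and Pax6 all stand over blue, while the one at Pax4 does not.

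H3K4me3 islands at these genes were low, and their counts lay mostly near the share over all genes. An island overlapped the gene at 3 of 7 (Pax2, Pax5 and Pax6), against 62.2% of all protein-coding genes, and lay within 30 kb at 4 of 7, against 73.7%. At an annotated gene end, where the count departed furthest from the background, it was found at 1 of 7, against 58.9% of all genes. H3K27me3 was found there at 7 of 7, against 22.4%, and both marks at 1 of 7, against 16.8%. Of the 9 H3K4me3 islands in the windows, 8 lay wholly inside H3K27me3, a state of 20.4% of all H3K4me3 islands. Their heights ran from 10 to 39 with a median of 19.5. H3K4me3 islands inside H3K27me3 had a median height of 35 over the genome (interquartile range 18 to 63), and all H3K4me3 islands one of 90. Their widths ran from 0.999 to 2.40 kb, against a genome median of 2.40 kb for such islands. Only 1 of the 8 held an annotated start of the Pax gene, 3 overlapped a noncoding gene, and 4 met neither. Overlapping islands of both marks were found at 3 of 7 genes, against 29.6% of all genes. In a set restricted to islands with a summit above the median of their mark (90 for H3K4me3, 12 for H3K27me3), H3K27me3 lay on 7 of 7 genes, against 17.6% of all genes, within 30 kb of 7, against 31.9%, and at a gene end of 7, against 16.9%. In that set H3K4me3 lay within 30 kb of 1 gene, Pax4, against 53.7%, and, as follows from the heights above, on 0 of the 7 genes, against 38.7%, and at 0 gene ends, against 37.1%. The marks overlapped at 0 genes, against 6.6%, and shared a gene end at 0, against 4.28%.

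The share of the window under each mark was used to set the genes beside each other. For H3K27me3 it was 90.2% at Pax2, 68.3% at Pax7, 61.3% at Pax1, 59.9% at Pax5, 54.7% at Pax6, 21.5% at Pax4 and 16.2% at Pax8. The median was 59.9%, against 0% over all genes, whose 95th percentile was 33.1%. Pax8 and Pax4 lay under that percentile, and the other 5 above it. For H3K4me3 the share was 14.9% at Pax4, through its neighbours, 5.27% at Pax2, 2.46% at Pax6, 2.19% at Pax5 and 0% at Pax1, Pax7 and Pax8, with a median over all genes of 4.45%. Windows differ in length from 67.0 to 246 kb, so a long gene needs more marked sequence for an equal share.

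**Figure D4:**
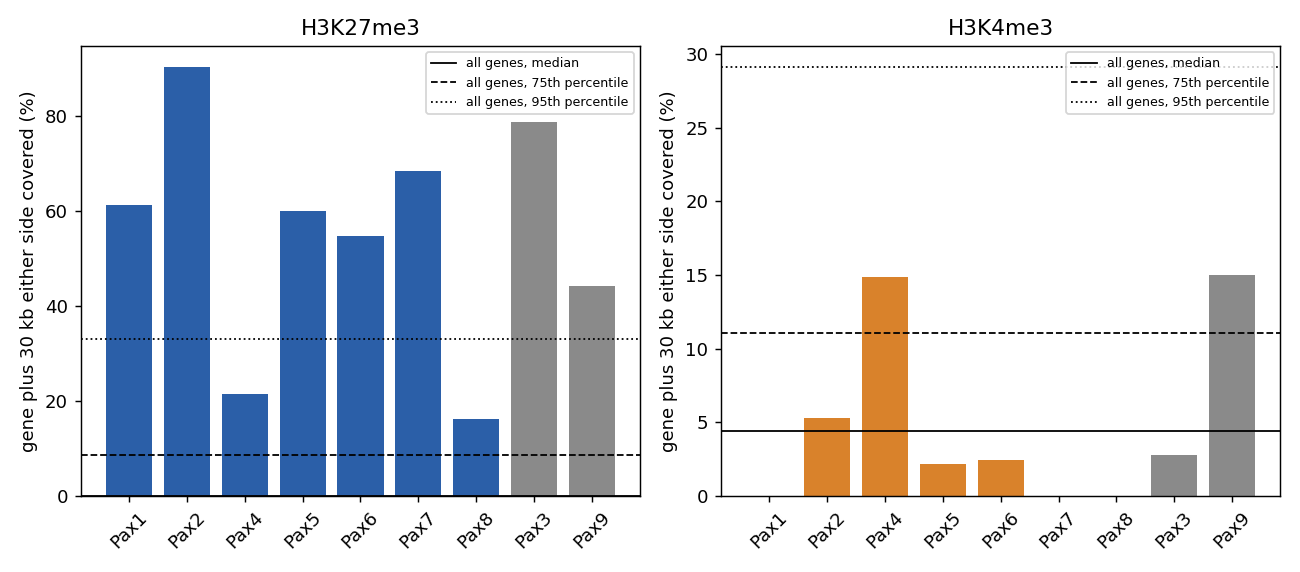
Share of the gene plus 30 kb either side covered by H3K27me3 (left) and H3K4me3 (right), as bars for the 7 Pax genes in colour and for Pax3 and Pax9 in grey, with lines at the median and the 75th and 95th percentiles of all 21631 genes. On the left 5 of the 7 coloured bars pass 33.1%, and on the right the tallest coloured bar is Pax4 at 14.9%.

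H3K27me3 covered more of the start side at most of the Pax genes, as it did over all genes. Among the 6 genes with a known strand, the start side of the gene's midpoint was covered further than the far side at 5, and at Pax1 both sides were at 100%. At Pax2, counted among the 5, the sides hardly differed, with 98.3% against 95.2%. At Pax6 they were at 100% and 82.3%. Over all genes longer than 10 kb with H3K27me3 and a known strand, 73.8% leaned to the start, so the count at the Pax genes is near the background. The summit of the widest island lay downstream of the nearest start at 5 of 6 genes, by 2.33 kb at Pax1, 3.32 kb at Pax2, 3.73 kb at Pax5, 7.11 kb at Pax7 and 1.77 kb at Pax8. Among 1286 H3K27me3 islands over 10 kb that held at least 1 start site, 66.6% had the summit downstream of the nearest one, with a median position 0.51 kb after the start (interquartile range -0.424 to 1.53 kb). Each of these 5 summits lay farther into the gene than that range. The 5 islands were 18.6 to 71.6 kb wide, and a range for islands of like width was not computed.

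Pax3 and Pax9, the family members of crest and tooth, did not resemble each other. Pax9 had an H3K4me3 island of 11.4 kb with a height of 103 over its start site, which none of the 7 approached: the widest H3K4me3 island on any of their genes was 2.40 kb and the highest 39. H3K27me3 at Pax9 was 35.8 kb wide, within the range of the 7, but with a height of 31 it was lower than at 6 of them. At Pax3, as at its relative Pax7, no H3K4me3 island was called on the gene. The widest H3K27me3 island of Pax3 had a height of 84, near the 81 of Pax7. At 93.6 kb it was wider than at any of the 7, with 71.6 kb at Pax7. H3K27me3 covered 93.5% of Pax3 and 74.1% of Pax7. The H3K4me3 islands in the Pax3 window lay on Gm33152 (height 12) and Gm2102 (height 47), inside H3K27me3. With 1 library per mark these differences between genes have no test.

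Genes that work with the Pax factors in their organs were listed by organ, 74 in all, and grouped by which marks lay near an annotated gene end (1 kb or less). H3K27me3 lay at 54 of the 74, against 22.4% of all genes. H3K4me3 lay at 42, near its share of 58.9% of all genes. These shares also apply to the counts by organ below. Both marks were found at 36, H3K27me3 only at 18, H3K4me3 only at 6 and neither at 14. Over all 21631 genes the counts were 3630, 1226, 9116 and 7659. Both marks thus stood at 36 of 74 partner genes, against 16.8% of all genes. At the Pax genes the count was 1 of 7, near that share, through the H3K4me3 island at the far end of Pax2. Counted only among genes with H3K27me3 at an end, the picture differs. H3K4me3 was then also present at 36 of 54 partner genes, 3630 of 4856 of all genes and 1 of 7 Pax genes. By this count the partner genes do not exceed the background, and the Pax genes lie below it. These differences were not tested. States refer to the gene ends, and Mitf and Cd22, for example, had an H3K27me3 island inside the gene. The median share of their windows under H3K27me3 was 33.2%.

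For kidney and ear, 11 of 12 genes carried H3K27me3 and 9 H3K4me3. Eya1 and Six2, the genes of an Eya cofactor and of a homeobox factor that act beside Pax2, carried both, with H3K27me3 islands of 19.0 and 44.6 kb. Gata3 (46.0 kb) carried H3K27me3 only at its ends. Gdnf, the growth factor that draws out the ureteric bud, carried H3K4me3 only (7.0 kb, height 59) and no H3K27me3 island. For the thyroid, 6 of 8 carried H3K27me3 and 4 H3K4me3. The transcription factor genes Nkx2-1 (50.4 kb), Foxe1 (35.0 kb) and Hhex (18.8 kb) had both marks. Slc5a5, the iodide transporter gene, and Duox2 had H3K27me3 only, and Tg, the thyroglobulin gene, had neither.

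For the eye, 10 of 12 carried H3K27me3 and 8 H3K4me3. Six3 (55.8 kb) and Otx2 (66.8 kb) had H3K27me3 only, Six6 (31.8 kb) and Lhx2 (54.6 kb) had both, Mitf had H3K4me3 only and Crx neither. For the endocrine pancreas, 9 of 12 carried H3K27me3 and 4 H3K4me3. Pdx1 (69.0 kb), Nkx2-2 (34.8 kb) and Neurog3 (15.4 kb) had H3K27me3 only, Nkx6-1 (34.2 kb), Neurod1 (18.4 kb) and Mafa (24.4 kb) had both, and the hormone genes Ins1, Ins2 and Gcg had neither. Of the product genes in these lists, Tg, Ins1 and Gcg had no island of either mark within 30 kb. Slc5a5 (10.6 kb, height 64) and Duox2 (31.2 kb, height 87) had H3K27me3 at a gene end. Both summits lay in the range of the thyroid, eye and pancreas transcription factor genes named with H3K27me3 at a gene end, 55 to 99. Mitf, with H3K27me3 inside the gene only, had a summit of 17, and Crx had no island. Sst, the somatostatin gene, had an H3K27me3 summit of 10 (2.8 kb).

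For skeletal muscle, 7 of 10 carried H3K27me3 and 4 H3K4me3. Met, Six4 and Lbx1 carried both marks, Myod1 (9.40 kb), Des and Ckm H3K27me3 only, and Myf5, Myf6 and Myog neither. The H3K27me3 islands at Met (6.2 kb) and Six4 (4.6 kb) had a height of 12, the median of that mark. Their H3K4me3 heights were 115 and 159. Lbx1 had the reverse, with H3K27me3 of 46.0 kb at a height of 109 and H3K4me3 at 14. For the axial skeleton, 9 of 10 carried H3K27me3 and 8 H3K4me3. Nkx3-2 (35.6 kb), a target of Pax1, carried both with an H3K4me3 height of 22, Meox1 and Uncx (82.2 kb) H3K27me3 only, and Mfap2, a microfibril gene, H3K4me3 only. For B lymphocytes H3K27me3 lay at 2 of 10 genes, near the 22.4% of all genes: Ebf1 (96.0 kb) and Ikzf1 (10.6 kb), both with H3K4me3 as well. Tcf3, which is used in many cell types, Spi1 and Cd79a carried H3K4me3 only, and Blnk and Cd22 neither.

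**Figure D5:**
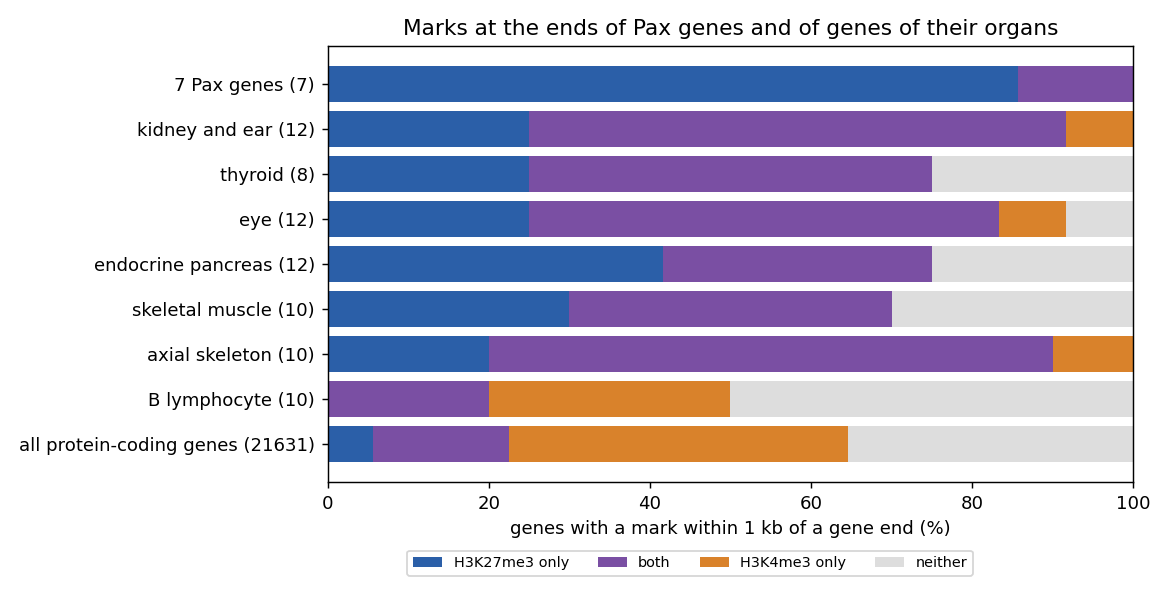
Share of genes (x axis, %) by the marks within 1 kb of either gene end, for the 7 Pax genes, for each organ's list of partner genes with its number of genes in brackets, and for all protein-coding genes. H3K27me3, alone or with H3K4me3, reaches 7 of 7 Pax genes, 11 of 12 kidney and ear genes and 2 of 10 B lymphocyte genes. Among all protein-coding genes it reaches 22.4%.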

How the data were processed

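Islands of H3K4me3 and H3K27me3 were deposited by the authors as 1 track of intervals and 1 of summits per mark. The summit height is a score deposited by the authors, whose scaling between libraries is not stated, and it was compared within a mark only. BWA, SICER and mm10 are named per the submitters' processing notes, without versions or settings, and no input library was used, per the labels' design text. All island widths (100%) were 1 bp short of a multiple of 200 bp.

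Positions are 1-based. Islands were joined to RefSeq genes (GRCm38.p6) by overlap of at least 1 bp with the gene, the gene plus 30 kb, or 1 kb either side of its ends, with Python 3.11.15 and pandas 2.3.3. Overlap counting was checked on simulated data. Start sites, strands and sequences came from a RefSeq table. A percentile is a gene's or island's rank among all. All 7 genes, Pax3, Pax9, their neighbours and up to 3 partner genes per state, in list order, could be named. Some genes that this rule takes are counted but are not reported here by name. The members and lists were chosen with earlier results of these data known. Comparison at start sites and by side of the gene's midpoint was added after seeing the data. With 1 library per mark, no p-value was computed. Signal tracks were not used here.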

Additional observations from a re-analysis of the deposited data

How the results depend on the processing

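H3K27me3 stayed at 7 of 7 genes, on the gene, within the flanks and at a gene end, under every alternative run; counted at the RefSeq start sites, an alternative chosen after seeing the data, it lay at all 6 genes that have one. The H3K4me3 islands on these genes all have summits under the median of that mark, so a limit set there removes them by construction: with islands above the median height, H3K4me3 lay within 30 kb of 1 gene (4 with all islands), on 0 genes (3), at the end of 0 (1), and both marks overlapped at 0 (3) or shared a gene end at 0 (1). With end windows of 500 bp, H3K4me3 and both marks were at 0 gene ends (1 with 1 kb). The median share of the window under H3K27me3, 59.9% with 30 kb flanks, was 70.6% with 10 kb, 26.8% with 100 kb, 54.4% in the higher-summit set and 60.9% with islands up to 1000 bp apart joined. For H3K4me3 it was 2.19%, and 0% with 10 kb, 1.25% with 100 kb and 0% in the higher-summit set. Of 48 recomputed values 34 stayed within the limits set for them and 14 moved. A flank cannot change a count on the gene itself, so no such value was computed. No paired analysis was possible because each mark has 1 library. The depth is unknown, so a missing island cannot be told from one below detection, and without an input library mappability and copy number cannot be told apart from the mark.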

Other observations

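Sequence from 30 to 100 kb away from the 7 genes was examined for islands that the windows above leave out. Beyond the far end of Pax6, where the 3′ neighbour Elp4 lies, no island of either mark was called, and on the other side there was 1 H3K27me3 island of 12.6 kb (height 27). At Pax2 the H3K27me3 continued on both sides, with 63.0 kb on the low-coordinate side, part of it the outer end of the 70.2 kb island described above, and 32.3 kb on the other, where the DNA repair gene Slf2 lies and H3K4me3 reached a height of 174. At Pax5 the high-coordinate side held the neighbour Zcchc7 with H3K4me3 at a height of 153 and 6.60 kb of H3K27me3 (height 10), and the low-coordinate side held 8.85 kb of H3K27me3 (height 50). Past Pax1 on the high-coordinate side, past Pax4 on the side of Snd1 and past Pax8 on the side of Psd4 and Il1rn, H3K27me3 was at 0 kb.

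Joining islands up to 1000 bp apart changed the widest H3K27me3 block at Pax2 from 70.2 to 83.2 kb, at Pax7 from 71.6 to 77.2 kb and at Pax3 from 93.6 to 100 kb, and left the width at Pax1, Pax4, Pax5, Pax6, Pax8 and Pax9 as deposited. The number of H3K27me3 islands in the Pax5 window went from 11 to 8.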
